A study of Rattus norvegicus with 4 samples.

Results

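Among the acetylated regions that cultured rat oligodendrocytes showed only after lysolecithin, 2380 lay close to chromatin that was already acetylated in vehicle, and these regions are described here. Peaks of the vehicle and LPC H3K27Ac lists were pooled, and those at most 1 kb apart were joined, which gave 29950 regions on the 20 autosomes. The regions described here held LPC peaks only and had a vehicle H3K27Ac peak more than 1 kb but at most 12.5 kb away, edge to edge. They made up 7.95% of all joined regions. They were thus chosen by the presence and absence of peaks in the 2 H3K27Ac lists, and every value taken from those lists is a description. The Olig2 lists had no part in the choice. Because they flank existing acetylation, the 2380 regions are called flanking LPC-only regions below.

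The study profiled differentiated oligodendrocytes, glial cells that wrap axons of the brain and spinal cord in myelin, by chromatin immunoprecipitation and sequencing, with 1 library for each of 2 antibodies (H3K27Ac or Olig2) in each of 2 conditions. Precursors from mixed rat glial cultures were expanded with PDGF-AA (10 ng/ml) and bFGF (20 ng/ml), and all 4 libraries came from cells then differentiated with the thyroid hormone T3 (15 nM) and ciliary neurotrophic factor (10 ng/ml). The LPC libraries came from cells given lysophosphatidylcholine (lysolecithin, LPC, a detergent-like lipid that strips myelin) for 6 h, and the others from vehicle-treated cells. The labels state the LPC concentration as 12.5 mM, and whether that unit is right was not established. On autosomes the vehicle and LPC H3K27Ac lists held 38135 and 37736 peaks, covering 33.8 and 40.9 Mb, and the Olig2 lists 4918 and 3203 peaks. The lists hold positions on the rat build rn4 alone, with no height or read count, so the depth behind a peak is unknown and a region absent from a list may lie just under its threshold. With 1 library on each side there is no replicate, and it cannot be told apart whether LPC widened acetylation or whether the LPC library was merely deeper or more enriched.

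H3K27Ac is an acetyl mark on the tail of histone H3, written by the acetyltransferases p300 and CBP and removed by histone deacetylases, and it is found at active promoters and enhancers. Acetylated elements often sit in groups around genes that define a cell type. Olig2 is a basic helix-loop-helix transcription factor that specifies the oligodendrocyte lineage, binds many of its enhancers and brings the chromatin remodeller Brg1 to them. Gene annotation and sequence of rn4 were not used here, so the regions are given by position and not assigned to genes.

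The flanking LPC-only regions were short and mostly single peaks. Their median length was 593 bp, with quartiles of 445 and 853 bp and a range of 220 to 3893 bp, and 412 (17.3%) reached 1 kb. Of the 2380, 2170 held 1 LPC peak, 201 held 2, 8 held 3 and 1 held 4. Isolated LPC-only regions, the 3427 with no vehicle peak within 12.5 kb, had a median of 543 bp. Shared regions, which hold peaks of both conditions, were much longer, with a median of 1823 bp for the 9798 that had another vehicle peak at 1 to 12.5 kb. The flanking regions thus resembled the isolated ones in size. Their contrast with shared regions follows in part from the definition, since a shared region joins at least 1 peak of each list.

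Of the 5807 LPC-only regions on autosomes, 41.0% flanked vehicle acetylation. The stretch at 1 to 12.5 kb from a vehicle peak took up 398 Mb, or 15.6% of the autosomes measured from the first to the last peak. Other classes lay close to acetylation at least as often. Of shared regions, 47.1% had another vehicle peak in that range, and of the 3334 vehicle-only regions, 46.9% had an LPC peak there. The mirrored class, vehicle-only regions with an LPC peak at 1 to 12.5 kb, held 1562 regions, so the flanking LPC-only regions were 1.52 times as many. In all regions tested, 19.4% were LPC-only and 11.1% vehicle-only, and isolated LPC-only regions likewise outnumbered the 1772 isolated vehicle-only ones. Mirrored regions were shorter, with a median of 494 bp, and 99 of them (6.34%) reached 1 kb. Peaks of the whole vehicle H3K27Ac list were also shorter, with a median of 674 bp against 823 bp in the LPC list.

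Flanking regions were densest next to the vehicle peak and thinned out with distance. The median distance was 4.96 kb, and 1205 regions (50.6%) lay within 5 kb. There were 410 at 1 to 2 kb, 299 at 2 to 3 kb, 222 at 5 to 6 kb and 125 at 11 to 12 kb. The same decline was seen for shared regions and their nearest other vehicle peak (median 4.75 kb) and for mirrored regions and their nearest LPC peak (median 4.81 kb). Length hardly varied with distance. The median was 604 bp at 1 to 3 kb, 602 bp at 3 to 6 kb and 575 bp at 6 to 12.5 kb. At the outer limit of the class, 124 LPC-only regions lay at 11.5 to 12.5 kb (median 602 bp) and 114 at 12.5 to 13.5 kb (median 546 bp). At the inner limit, 82 LPC peaks lay 900 to 1000 bp from a vehicle peak and were joined to it, and 85 lay at 1000 to 1100 bp.

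**Figure D1:**
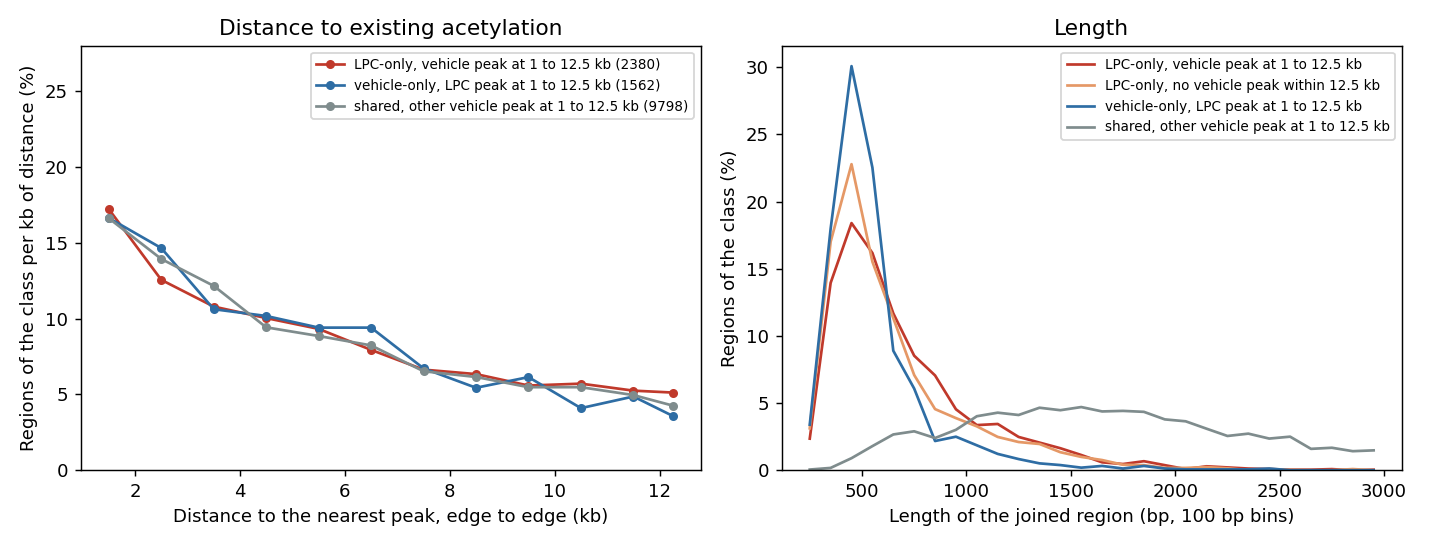
Left, share of each class of joined regions per kb of distance to the nearest H3K27Ac peak (vehicle peak for LPC-only and shared regions, LPC peak for vehicle-only regions). Right, share of each class by region length in 100 bp bins, shown up to 3000 bp. The 3 distance curves nearly coincide. LPC-only and vehicle-only regions are far shorter than shared ones, which join at least 1 peak of each list.

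Most flanking regions lay to 1 side of the existing acetylation. A vehicle peak within 12.5 kb on both sides was found for 514 (21.6%), close to the 22.9% seen among shared regions with a vehicle neighbour. Of these 514, 268 lay in gaps of at most 12.5 kb between vehicle peaks, inside what would already be a single cluster at that distance. The other 246 (10.3% of the class) lay between vehicle peaks more than 12.5 kb apart and within 12.5 kb of each. Added to the vehicle peaks, their LPC peaks would connect clusters that were separate in vehicle. Whether the vehicle peaks on both sides also had LPC peaks was not examined for the 246. The longest of the 246 spanned 3893 bp on chromosome 3 (41045493 to 41049385), between vehicle peaks 13132 bp apart. The nearer of those vehicle peaks lay in a vehicle-only region, so the LPC list held no peak there. The next longest was a region of 2376 bp on the same chromosome (86946868 to 86949243) in a gap of 24887 bp. The third, on chromosome 5 (154754310 to 154756589), measured 2280 bp and lay in a gap of 20673 bp.

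The nearest vehicle peak usually belonged to a region acetylated in both conditions. This was so for 2071 flanking regions (87.0%), and for the other 309 the nearest vehicle peak lay in a vehicle-only region. For comparison, 13.8% of all regions with a vehicle peak were vehicle-only. The 1925 shared regions nearest to a flanking region had a median length of 1812 bp. In 72.7% of them the LPC peaks covered the greater length, with a median ratio of covered length of 1.15. In the 9000 other shared regions with a vehicle neighbour the values were 1811 bp, 71.7% and 1.14. Not all of the 1925 had such a neighbour themselves, and over all 18884 other shared regions the values were 1673 bp, 71.6% and 1.14. Gain in coverage of the acetylated regions next to LPC-only regions was thus close to that of both sets. Their size was close to that of the others with a vehicle neighbour and somewhat above that of all others.

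LPC peaks in the flanking regions covered 1.64 Mb of the 40.9 Mb covered by the autosomal LPC list. The net difference between the LPC and vehicle lists was 7.07 Mb. The flanking regions, which by definition can only add to it, equalled 23.1% of it. Mirrored regions, which can only subtract, equalled 12.1%. Isolated LPC-only regions covered 2.19 Mb. Within shared regions, LPC coverage exceeded vehicle coverage by 5.05 Mb, and vehicle-only regions subtracted 0.859 Mb (mirrored) and 0.946 Mb (isolated).

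Flanking regions had the lowest Olig2 shares of the classes examined. A vehicle Olig2 peak overlapped 66 of 2380 (2.77%, exact binomial 95% interval 2.15 to 3.51), against 10.4% of all joined regions. An LPC Olig2 peak overlapped 42 (1.76%, 1.27 to 2.38), against 6.88% of all joined regions. Intervals here cover counting error only, treat regions as independent and say nothing of variation between cultures. Since nearly every LPC Olig2 peak sits at a vehicle Olig2 site, the LPC values do not add separate evidence to the vehicle values. The remaining 2313 regions (97.2%) held no Olig2 peak in either condition.

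The difference from isolated LPC-only regions was larger than counting error. Of those, 163 (4.76%, 4.07 to 5.52) carried a vehicle Olig2 peak and 106 (3.09%, 2.54 to 3.73) an LPC one. Flanking minus isolated, the difference was -1.98 percentage points in vehicle (Newcombe 95% interval -2.95 to -0.99) and -1.33 points in LPC (-2.11 to -0.52). A similar contrast held between vehicle-only regions beside LPC acetylation and isolated ones. A vehicle Olig2 peak lay on 4.29% of mirrored regions and on 8.07% of isolated vehicle-only regions (mirrored minus isolated -3.78 points, -5.41 to -2.15). Set against mirrored regions, flanking LPC-only regions carried vehicle Olig2 less often (-1.52 points, -2.78 to -0.35), and for LPC Olig2 the interval reached 0 (-0.92 points, -1.96 to 0.00).

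**Figure D2:**
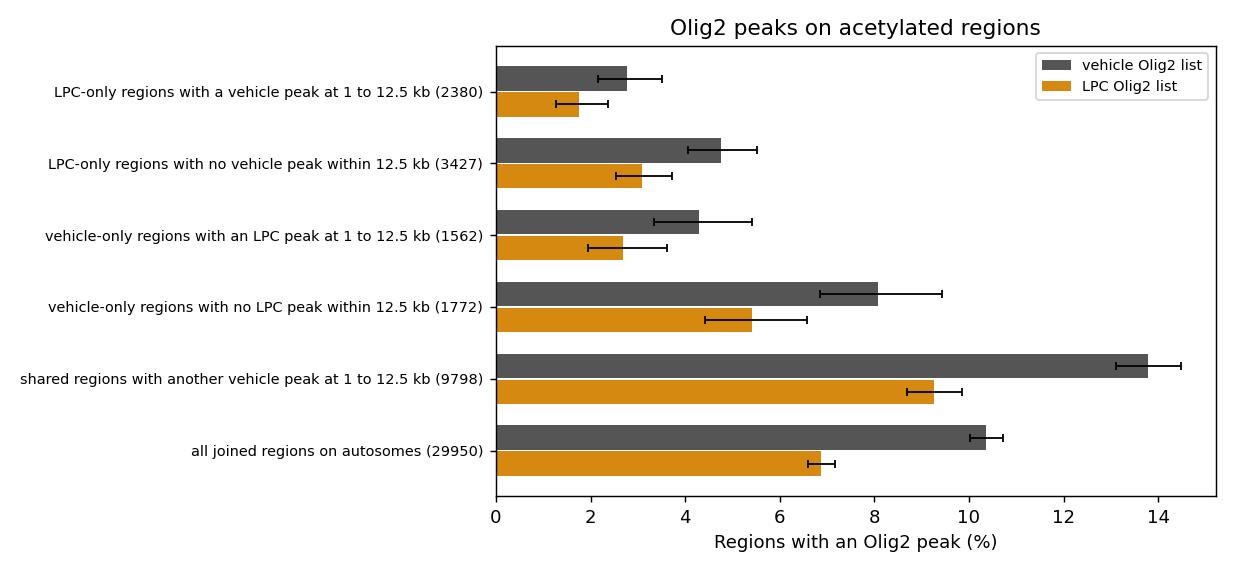
Share of joined regions that overlap an Olig2 peak, by class (number of regions in parentheses) and Olig2 list; bars are shares and whiskers exact binomial 95% intervals. The flanking LPC-only regions, at the top, have the lowest shares in both lists (2.77% and 1.76%).

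The contrast with isolated regions was also seen within classes of region length, except the shortest. Flanking regions were somewhat longer, and a longer region gives an Olig2 peak more room to overlap. Below 500 bp the classes carried vehicle Olig2 at 2.30% and 2.72% (difference -0.42 points, -1.69 to 1.03). From 1200 bp upward it was 3.60% of 250 flanking and 8.47% of 307 isolated regions (-4.87 points, -8.89 to -0.81). In between, from 500 to under 800 bp and from 800 to under 1200 bp, the differences were -2.59 points (-4.34 to -0.79) and -3.84 points (-6.66 to -1.11). The vehicle Olig2 share thus ran from 2.72% in the shortest to 8.47% in the longest class of isolated regions, and only between 2.30% and 3.60% over the classes of flanking ones. Per Mb of region, midpoints of vehicle Olig2 peaks numbered 26.1 in flanking, 51.0 in isolated LPC-only and 60.8 in shared regions with a vehicle neighbour. Against those shared regions the LPC Olig2 share of the flanking class differed by -7.49 points (-8.24 to -6.66). With shares standardised to the lengths of the flanking regions over these classes, the difference was -1.25 points (-2.19 to -0.31). Lengths were not matched within the open class from 1200 bp, which held 7623 of the 9798 shared regions. There LPC Olig2 lay on 3.20% of flanking and 11.1% of shared regions. Flanking shares were also lower from 500 to under 1200 bp. Below 500 bp the order was reversed (1.45% of flanking and 0.91% of 110 shared regions), with overlapping intervals.

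**Figure D3:**
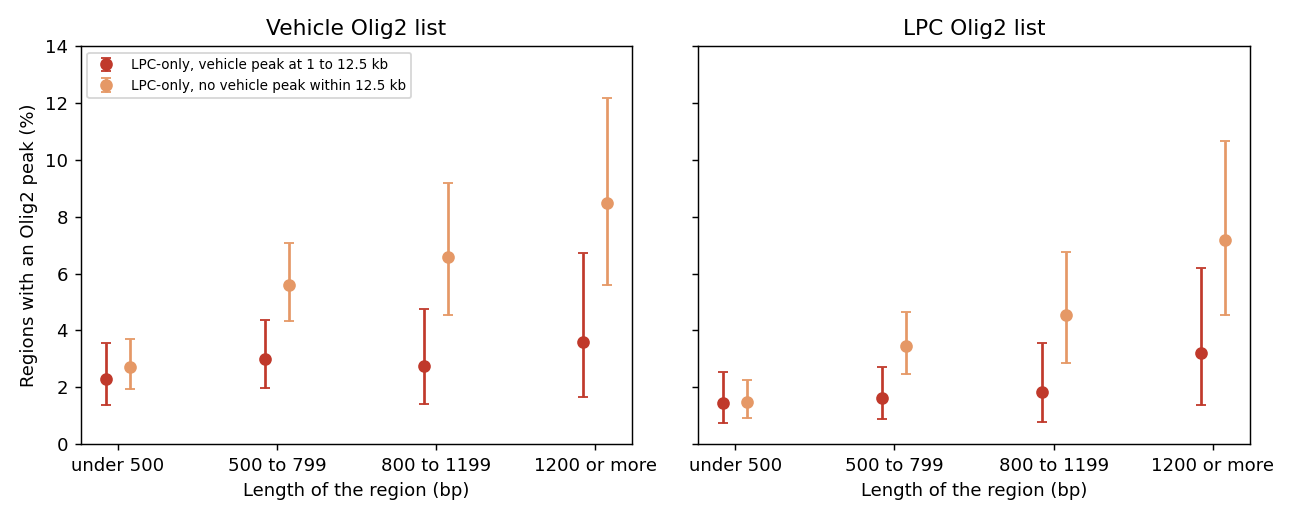
Share of regions with an Olig2 peak (y axis, percent) in 4 classes of region length (x axis) for flanking and isolated LPC-only regions, with exact binomial 95% intervals; the left panel uses the vehicle and the right the LPC Olig2 list. Shares lie close together below 500 bp, and flanking regions lie lower in the 3 longer classes.

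Near the flanking regions, Olig2 was called more often than near isolated ones. A vehicle Olig2 peak lay off the region but within 12.5 kb for 449 flanking regions (18.9%) and for 93 isolated ones (2.71%), a difference of 16.2 points (14.5 to 17.8). Within 5 kb the shares were 7.10% and 1.14%, and with the LPC Olig2 list 4.54% and 0.70%. The rule bears on this contrast, because it puts vehicle acetylation near one class and keeps it from the other, and Olig2 mostly sits on acetylated regions. Classes that also lay beside acetylation had higher shares with Olig2 on them or within 12.5 kb than the flanking regions, although the intervals of mirrored and flanking regions overlapped. With the vehicle list this held for 21.6% of flanking regions (20.0 to 23.3), 24.8% of mirrored regions (lower limit 22.7) and 27.6% of shared regions with a vehicle neighbour (26.8 to 28.5). With the LPC list the shares were 14.2%, 16.5% and 19.0%. By either list, most flanking regions thus had no Olig2 peak in that range. Of the 519 vehicle Olig2 peaks within 12.5 kb of a flanking region, 410 (79.0%) lay on a region with a vehicle H3K27Ac peak, 66 (12.7%) on a flanking region, 2 on another LPC-only region and 41 (7.90%) on no joined region. No Olig2 peak of either list spanned both a flanking region and a region with a vehicle peak. Vehicle Olig2 midpoints numbered 5.25 per Mb of flank in the first kb outside the flanking regions, 3.36 at 1 to 2 kb and 10.3 at 4 to 5 kb. Around isolated regions they fell from 7.88 in the first kb to 1.02 at 1 to 2 kb and were 1.02 again at 4 to 5 kb.

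**Figure D4:**
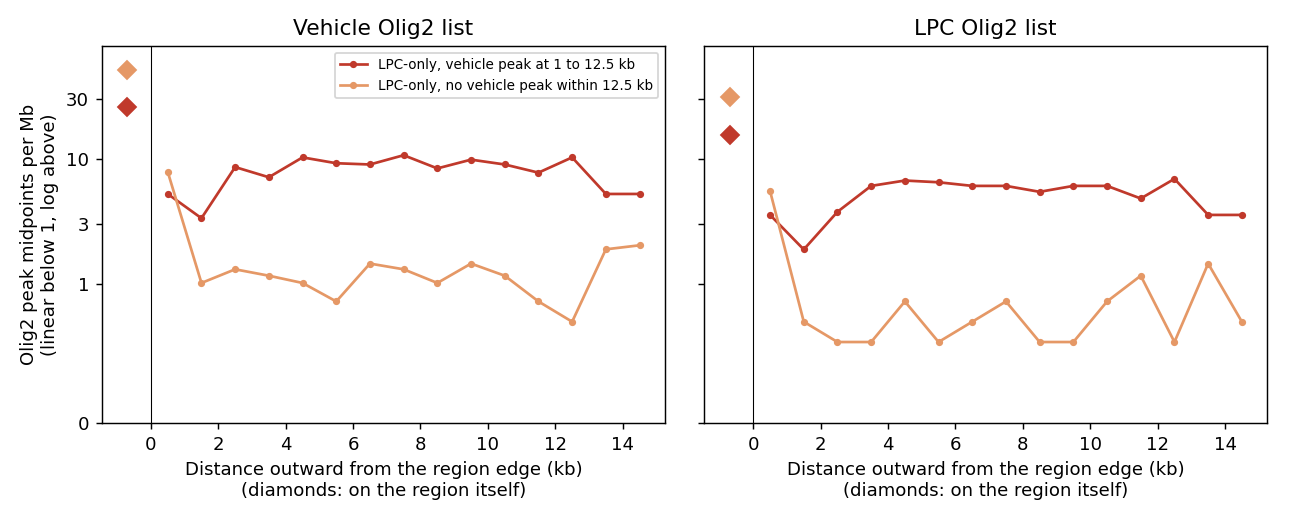
Midpoints of Olig2 peaks per Mb (y axis, linear below 1 and logarithmic above) on LPC-only regions (diamonds) and in 1 kb steps outward from both edges (x axis, kb), for flanking and isolated regions; the left panel uses the vehicle and the right the LPC Olig2 list. Isolated regions are higher on the region itself and flanking regions higher from 1 kb outward.

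For the neighbours themselves, the Olig2 comparison depended on the shared regions they were set against. A vehicle Olig2 peak lay on 286 of the 1925 shared regions nearest to a flanking region (14.9%) and on 13.5% of the other shared regions with a vehicle neighbour, a difference of 1.35 points (-0.34 to 3.14). For LPC Olig2 the shares were 9.56% and 9.12% (0.44 points, -0.94 to 1.95). On the flanking regions themselves, the shares at different distances overlapped within their intervals. Vehicle Olig2 lay on 2.12% of them (1.19 to 3.47) at 1 to 3 kb from the vehicle peak, on 3.34% (2.15 to 4.93) at 3 to 6 kb and on 2.83% (1.88 to 4.10) at 6 to 12.5 kb. Regions flanked on both sides and on 1 side carried it in 2.33% and 2.89% (-0.56 points, -1.88 to 1.27).

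Where Olig2 did lie on a flanking region, it was called in vehicle in all but 1 case, at sites without a vehicle H3K27Ac peak. In 41 regions, on 17 autosomes, Olig2 was called in both conditions, and in 25 regions in vehicle alone. By peaks, 42 of the 66 vehicle Olig2 peaks on flanking regions overlapped an LPC Olig2 peak (63.6%, 50.9 to 75.1), against 64.1% of all autosomal vehicle Olig2 peaks and 64.9% of those on shared regions. The difference from shared regions was -1.25 points with an interval from -13.4 to 9.46, and a difference within those bounds was not detectable with 66 peaks. The median vehicle Olig2 peak measured 977 bp on flanking and 1208 bp on shared regions. Among the 42 kept peaks the median ratio of LPC to vehicle length was 0.92, against 0.94 on shared regions.

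The longest flanking region with an LPC Olig2 peak lay on chromosome 20 (6009776 to 6011443, 1668 bp). Vehicle H3K27Ac peaks lay 12200 bp to its lower and 12452 bp to its higher side, and none on it. Its Olig2 peak, 1200 bp long in vehicle and 919 bp after LPC, lay wholly inside the acetylated stretch. The next, on chromosome 17 (53141344 to 53142980, 1637 bp), held an Olig2 peak in each list (761 bp in vehicle, 778 bp after LPC), 5906 bp from a shared region. In the third, on chromosome 7 (112835196 to 112836802, 1607 bp), the Olig2 peak overlapped only the higher edge of the region. It ran from 112836716 to 112838042 in vehicle (1327 bp) and from 112836750 to 112837898 after LPC (1149 bp), mostly outside the region. The sites on chromosomes 20 and 17 were thus occupied by Olig2 in both conditions and acetylated in the LPC list alone.

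Olig2 was called in vehicle alone on a region of 1363 bp on chromosome 4 (64796353 to 64797715), where the vehicle Olig2 peak measured 1208 bp. That region sat in a gap of 11596 bp between vehicle H3K27Ac peaks, 4325 bp from a shared region of 5407 bp. The others of this kind named here lay on chromosome 3 (10892034 to 10893304), with a vehicle Olig2 peak of 869 bp, and chromosome 2 (141027804 to 141028795), with one of 1870 bp. At these sites the lists differed in opposite directions, with H3K27Ac present in LPC alone and Olig2 in vehicle alone. The reverse, Olig2 in LPC alone, occurred in 1 flanking region, on chromosome 6 (32044248 to 32045650, 1403 bp), with an LPC Olig2 peak of 968 bp. Over all joined regions 0.114% had Olig2 in LPC alone. That region lay 4230 bp from a shared region of 5659 bp, and a vehicle Olig2 peak lay 4784 bp away.

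The 5 longest flanking regions held no Olig2 peak, and neither did 97.2% of the whole class. The longest of all, the region of 3893 bp on chromosome 3 given above, was a single LPC peak, and the vehicle peak nearest to it, 1315 bp away, was a vehicle-only region of 479 bp. The nearest vehicle Olig2 peak was 63522 bp away. The second, on chromosome 11 (24601123 to 24604237, 3115 bp), held 2 LPC peaks and lay 8190 bp from a shared region that vehicle peaks covered over 3195 bp and a single LPC peak over 4752 bp. The third, on chromosome 5 (127856327 to 127859245, 2919 bp), lay 5354 bp from a shared region where LPC coverage was the lower of the conditions (1034 against 1597 bp). The fourth, on chromosome 13 (51083449 to 51086246, 2798 bp), lay 3389 bp from the edge of a shared region of 17204 bp, in which 9 vehicle peaks covered 11732 bp and 10 LPC peaks 14428 bp. The fifth, on chromosome 10 (11100215 to 11102940, 2726 bp), lay 5192 bp from a shared region of 1477 bp. The long regions thus accompanied neighbours of very different size.

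Flanking regions also occurred in groups. When all H3K27Ac peaks were joined across gaps of up to 12.5 kb into neighbourhoods, 2075 of 20084 neighbourhoods (10.3%) held at least 1 flanking region. Only a neighbourhood with a vehicle peak can hold one. Of the 2075, 253 held 2 or more, and they contained 558 flanking regions (23.4%). The 558 include regions linked to each other only through other peaks. Such counts were not made for the other classes, so whether flanking regions group more than those was not tested. The largest numbers were 6 regions in each of 2 neighbourhoods, on chromosomes 18 and 14.

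In the chromosome 18 neighbourhood (38734459 to 38799469, 65.0 kb), 8 vehicle peaks covered 5.35 kb and 16 LPC peaks 10.3 kb. All 8 shared regions in it held a single vehicle peak, and the 6 LPC-only regions between and beside them measured 248 to 1484 bp. The chromosome 14 neighbourhood (18193594 to 18235107, 41.5 kb) held 10 vehicle peaks over 9.85 kb and 13 LPC peaks over 15.5 kb, and its 6 LPC-only regions measured 350 to 1364 bp. No Olig2 peak lay in either. The longest of the 3 neighbourhoods tied at 4 LPC-only regions, on chromosome 8 (24873679 to 24939933, 66.3 kb), differed from these. It held 3 vehicle and 2 LPC Olig2 peaks, none of them on the LPC-only regions, and LPC peaks covered less of it than vehicle peaks (20.1 against 21.8 kb).

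**Figure D5:**
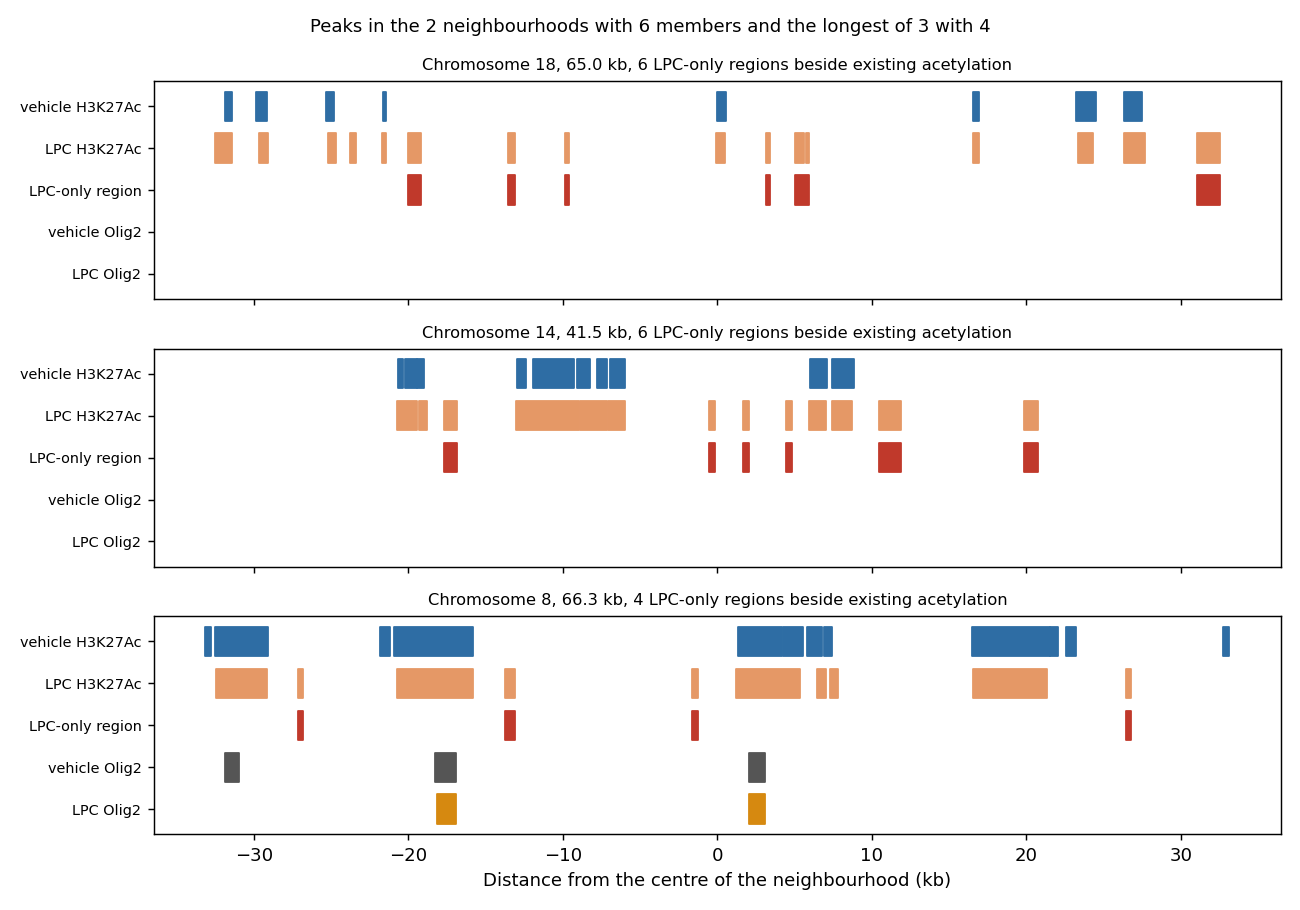
H3K27Ac and Olig2 peaks of each library, and the flanking LPC-only regions, in the 2 neighbourhoods that held 6 of them and in the longest of the 3 that held 4, drawn to scale by distance from the centre of each neighbourhood (kb). LPC-only regions lie between and beside vehicle peaks, and the 5 Olig2 peaks in the chromosome 8 neighbourhood lie on regions acetylated in vehicle.

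Flanking regions were found on all 20 autosomes. Per 100 shared regions there were 11.4 in all, with the lowest value on chromosome 15 (7.82) and the highest on chromosome 18 (14.9). On chromosome 15, 53 of 184 LPC-only regions flanked vehicle acetylation (28.8%), and on chromosome 10, 169 of 354 did (47.7%), the lowest and highest shares among autosomes. Flanking LPC-only regions outnumbered mirrored ones on 19 of the 20 autosomes, and chromosome 15, with 53 and 57, was the exception. Over all autosomes, LPC-only regions of any kind also outnumbered vehicle-only ones (5807 and 3334).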

How the data were processed

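Each deposited file is the authors' peak list for 1 library and holds positions alone (chromosome, start, end), without a score or count. The submitters' processing notes name MACS 1.4.2 and rn4. Peak threshold, control library, aligner and depth were not given in the sources at hand. Starts were read as counted from 0, and printed coordinates are 1-based on rn4.

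Joining, neighbour distances and overlaps (at least 1 bp) were computed on autosomes with numpy 2.4.6, pandas 2.3.3 and SciPy 1.17.1 under Python 3.11.15. The code was tested on simulated lists, and bedtools 2.31.1 returned the same 2380 regions and Olig2 counts. Shares carry exact binomial (Clopper-Pearson) and differences Newcombe 95% intervals; differences standardised to length carry a normal interval. Length classes were cut at 500, 800 and 1200 bp. With 1 library per antibody and condition no p-value was computed.

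Regions named are the 5 longest, the 3 longest with an LPC Olig2 peak, with vehicle Olig2 alone and between vehicle peaks over 12.5 kb apart, each with LPC Olig2 alone, and the 3 neighbourhoods that held most, with ties broken by span (the third was 1 of 3 that held 4). The class of regions and these rules were chosen with earlier results of these data known. Alternatives varied the peaks kept, the joining and neighbour distances, the chromosomes and the Olig2 overlap. Gene lists were set aside, as no rn4 annotation was used.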

Additional observations from a re-analysis of the deposited data

How the results depend on the processing

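The lower Olig2 share of flanking than of isolated LPC-only regions kept its sign, with an interval clear of 0, under all 10 alternatives run for each Olig2 list (-4.31 to -1.51 points in vehicle, -3.34 to -0.98 in LPC). The ratio to mirrored regions stayed between 1.48 and 1.62 in 7 alternatives. The number of flanking regions was 1251 with the shorter part of each list (below its median length) dropped, 1205 with neighbours within 5 kb and 856 when LPC peaks under the vehicle median of 674 bp were dropped, a filter chosen after seeing the data. Their share of LPC-only regions was 44.8% and 35.5% when joining within 500 bp and 2 kb, 20.8% and 59.7% with neighbours within 5 and 25 kb, and 36.5% when vehicle peaks within 2 kb were barred, as these definitions imply. With the first filter it was 33.3%, and the cause was not tested. The vehicle and LPC Olig2 shares were 4.88% and 3.12% with that first filter, and 1.85% and 1.09% when the Olig2 midpoint had to lie inside. The first filter also drops short vehicle peaks, so a region it counts as LPC-only may hold one. When only LPC peaks under 674 bp were dropped, the shares were 2.80% and 1.75%. The difference in kept Olig2 peaks between flanking and shared regions turned to 2.98 points with neighbours within 5 kb, within its interval (-15.6 to 17.3), and the cause was not tested. No paired analysis was possible because each antibody and condition has 1 library, and no library could be left out. Filters on score could not be run, since the lists hold none.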

Other observations

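The X chromosome, which the definition of the flanking regions leaves out, held 35 LPC-only regions with a vehicle peak at 1 to 12.5 kb among its 173 LPC-only regions. Their median length was 424 bp, and none carried an Olig2 peak in either list. The mirrored class on X held 14 regions, and 141 shared regions on X had another vehicle peak in that range, of which 8 carried a vehicle and 5 an LPC Olig2 peak.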
